A study of Mus musculus with 2 samples.

Results

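The genes described here are the ligands and receptors of the colony-stimulating factor and LIF family. They were chosen by symbol: the ligands Csf1, Osm and Lif, and the receptor chains Csf1r, Csf2ra, Csf2rb, Csf2rb2, Csf3r, Osmr and Lifr. All 10 were found among the 20938 genes of the tables, and 9 of them were among the 16659 genes whose mean value over both libraries was at least 1. RNA-seq was performed on Treg cells isolated with CD4 and CD25 magnetic beads from the spleens of C57BL/6J-background mice on day 7 after transplantation of BALB/c islets, with streptozotocin-induced diabetes and without antibody treatment in both groups. One library, labelled Ctrl, came from littermate controls, whose genotype is given as wild type in the labels and whose Treg cells were obtained from Mettl14f/f mice in the study's description of the model. The other, labelled KD, came from Foxp3-Mettl14f/+ cKO mice, in which Cre driven by Foxp3 removes 1 floxed allele of Mettl14 in Foxp3-expressing cells, so that other cell types in the preparation should keep both alleles. Mettl14 is a subunit of the enzyme complex that writes the m6A mark on RNA. The ages of the mice and the number of mice behind each library are not given in the sources used here.

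The labels give the genotype of the second library as a Foxp3 knockdown, but the Foxp3 RNA level was not lower in it. By western blot, the study reports less FOXP3 protein in Treg cells of Foxp3-Mettl14f/+ mice than of littermate controls. RNA reads do not measure protein. Foxp3, the defining transcription factor of Treg cells, had a level of 1497 in the library labelled Ctrl and 1548 in the library labelled KD, from 1547 and 1361 reads (log2 fold change 0.05). Mettl14 had levels of 917 and 741, from 948 and 652 reads, and its log2 fold change of -0.31 lay within 1.5-fold. A level here is the deposited value, a read count divided by 1 size factor per library, and the libraries held 20239325 and 18327535 reads. With 1 library per genotype there is no replicate error and no test between genotypes. Every interval in square brackets below is an exact 95% Clopper-Pearson interval converted to a log2 ratio, and it covers counting error only.

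Markers of several cell types were present beside those of Treg cells. The 14 T cell core genes found (Trac, Trbc1 and Trbc2 were not in the tables) held 70568 reads in the library labelled Ctrl and 49447 in the library labelled KD, and the 11 Treg markers held 10781 and 10311. The 13 mature granulocyte markers held 269959 and 327471 reads, the 18 macrophage and monocyte markers 30265 and 49931, and the 10 B cell markers 7736 and 36690. In such bulk samples, fewer cells of a type and less RNA per cell cannot be told apart.

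Colony-stimulating factors are secreted proteins that keep myeloid cells alive and drive their division and maturation. CSF1 acts through a receptor tyrosine kinase, CSF3 through a receptor that pairs with itself, and CSF2 (GM-CSF) through a specific alpha chain joined to a beta chain that IL-3 and IL-5 also use. LIF and oncostatin M belong to the IL-6 family and signal through the shared chain gp130, encoded by Il6st, together with LIFR or OSMR, and all of the cytokine receptors without a kinase of their own rely on JAK kinases and STAT factors.

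Of the 9 members that could be compared, 7 were at least 1.5-fold higher in the library labelled KD (Osm, Lif, Lifr, Csf1r, Csf3r, Csf2ra and Csf1) and 0 were at least 1.5-fold lower. Among all genes past the filter 17.2% were higher by that rule and 24.2% were lower. When the libraries were instead scaled to equal T cell core reads, the split of all genes was 27.1% higher and 19.5% lower, and 8 members were then higher. The median log2 fold change of the 9 members was 1.01, against -0.04 for all genes. Fold changes are on the log2(level + 1) scale.

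**Figure D1:**
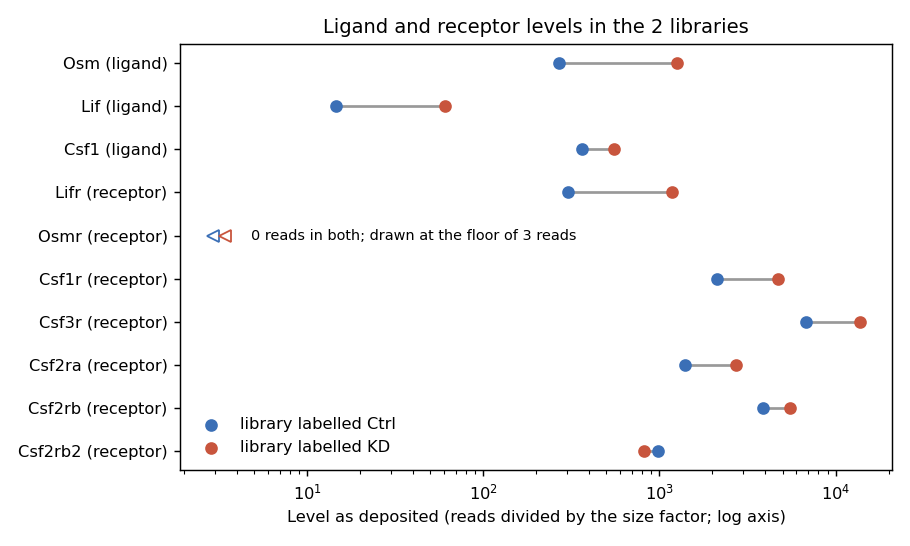
Deposited level (log axis) of each ligand and receptor in the library labelled Ctrl (blue) and the library labelled KD (red), 1 point per library and no error bars since there are no replicates. Csf2rb2 is the member whose red point lies to the left of the blue one, a direction that scaling to equal T cell core reads turns (0.03), and Osmr, with 0 reads in both, is drawn as open triangles at the floor of 3 reads.

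Per length, Csf3r was the most abundant member in both libraries and Lif the least abundant of those detected. In RPKM, reads per kilobase of exon scaled to each library's recovered total, the order in the library labelled Ctrl was Csf3r at 96.6, Csf2rb at 27.0, Csf2ra at 24.9, Csf1r at 18.8, Csf2rb2 at 10.5, Osm at 6.05, Csf1 at 3.52, Lifr at 1.44 and Lif at 0.170. In the library labelled KD the RPKM order was Csf3r at 183, Csf2ra at 45.7, Csf1r at 39.2, Csf2rb at 36.4, Osm at 26.4, Csf2rb2 at 8.32, Lifr at 5.22, Csf1 at 4.99 and Lif at 0.665. Without replicates, no pair of neighbours in either order can be tested. With the length of the longest transcript in place of all exons, the order in the library labelled Ctrl was the same, whereas in the library labelled KD Csf2rb (54.1) came before Csf1r (48.1) and Csf1 (6.31) before Lifr (5.82).

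CSF1 and its receptor were both higher in the library labelled KD, the receptor by more, and the call for the ligand was lost under other scalings. Csf1, the growth factor on which most macrophages depend, lies on the minus strand at chr3:107741048-107760469 (GRCm38, GENCODE vM21, as for all genes below). It had levels of 364 and 549, from 376 and 483 reads in the libraries labelled Ctrl and KD. Its log2 fold change was 0.59 [0.40, 0.79], a 1.51-fold difference that only just passed the threshold, and it fell short of 1.5-fold with TMM (0.57) or median-of-ratios scaling (0.58).

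Csf1r, the tyrosine kinase receptor for CSF1 that is typical of monocytes and macrophages, lies on the plus strand at chr18:61100598-61132149. Its levels were 2125 and 4714, from 2197 and 4145 reads. The library labelled KD was the higher one, with a log2 fold change of 1.15 [1.07, 1.22]. The last 873 bases of Csf1r overlap Hmgxb3 on the opposite strand, which had 1636 and 1144 reads, and whether counting used strand is not given in the sources used here. Per length, Csf1r reads were 5.34 times those of its ligand in the library labelled Ctrl and 7.85 times in the library labelled KD. Il34, the other ligand of this receptor, had 0 reads in both.

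Csf3r, the receptor for the granulocyte growth factor G-CSF and a hallmark of neutrophils and their precursors, lies on the plus strand at chr4:126024550-126044440. Its levels were 6827 and 13777, from 7057 and 12115 reads, with a log2 fold change of 1.01 [0.97, 1.06]. It was thus the most deeply read member and had the narrowest counting interval. Its ligand Csf3 had 8 reads in the library labelled Ctrl and 0 in the library labelled KD. Setting the 0 to a floor of 3 reads gives 2.27-fold lower. The counting interval of Csf3, however, reaches a log2 ratio of -0.54, which is within 1.5-fold.

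The chains of the GM-CSF receptor differed in their changes. Csf2ra, the alpha chain that binds GM-CSF, lies on the minus strand at chr19:61223957-61228429 and had levels of 1398 and 2736, from 1445 and 2406 reads (log2 fold change 0.97 [0.87, 1.06]). Csf2rb, the common beta chain that carries the signal for GM-CSF, IL-3 and IL-5, lies on the plus strand at chr15:78325752-78353847. Its levels were 3851 and 5520, from 3981 and 4854 reads, and its log2 fold change of 0.52 [0.46, 0.58], or 1.43-fold, did not pass the threshold. Per length, Csf2rb was at 1.09 times the level of Csf2ra in the library labelled Ctrl and at 0.796 times in the library labelled KD. Csf2 itself, like Il3 and Il5, had 0 reads in both libraries.

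Csf2rb2, the mouse-specific beta chain that serves IL-3 alone, lies 20030 bases from Csf2rb on the minus strand at chr15:78282507-78305721. It was the member with a negative change: its levels were 975 and 822, from 1008 and 723 reads, with a log2 fold change of -0.25 [-0.39, -0.11], whereas scaling to equal T cell core reads gave 0.03. Of the reads given to either beta chain, Csf2rb2 held 20.2% (95% exact interval 19.1 to 21.3) of 4989 in the library labelled Ctrl and 13.0% (12.1 to 13.9) of 5577 in the library labelled KD. This share does not depend on how the libraries are scaled.

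The beta chains are close copies, so the division of reads between them is uncertain. Their coding sequences align over 2626 bases, of which 2504 (95.4%) are identical. Of all stretches of 50 bases in the longest transcript, 18.4% of those in Csf2rb and 19.02% of those in Csf2rb2 occur in the other gene, and at 100 bases 6.96% and 7.20% do. The read length is not given in the sources used here. For both genes summed, the levels were 4826 and 6342 (log2 fold change 0.39 [0.34, 0.45]), which does not depend on how the counted reads were divided. Whether reads matching both genes were counted is not given in the sources used here, and any left out are missing from this sum. The windows of 60 coding bases with the most differences (13) and the first 60 coding bases (1 difference) are shown as examples of where the genes differ more and less. Capitals mark the bases that differ between the genes, all windows read 5′ to 3′ on the gene's own strand (GRCm38), and each lies within 1 coding exon.
Csf2rb, chr15:78338893-78338952, plus strand: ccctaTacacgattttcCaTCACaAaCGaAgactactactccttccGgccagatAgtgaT
Csf2rb2, chr15:78294379-78294438, minus strand: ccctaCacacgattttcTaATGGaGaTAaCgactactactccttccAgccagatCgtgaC
Csf2rb, chr15:78335207-78335266, plus strand: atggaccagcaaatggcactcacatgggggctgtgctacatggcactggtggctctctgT
Csf2rb2, chr15:78298170-78298229, minus strand: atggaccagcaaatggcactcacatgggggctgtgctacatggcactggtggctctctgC

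The largest changes among the members were on the oncostatin M and LIF side. Osm, which encodes oncostatin M, a cytokine made by activated myeloid and T cells, lies on the plus strand at chr11:4236420-4241026. Its levels were 269 and 1251, from 278 and 1100 reads, with a log2 fold change of 2.21 [2.03, 2.41] (4.64-fold). Of all genes past the filter 95.6% had a lower log2 fold change, counted with its sign, so strongly lowered genes are among them. Lif, which encodes leukemia inhibitory factor, begins 16530 bases beyond the end of Osm, on the plus strand at chr11:4257557-4272514. Its levels were 14.5 and 60.3, from 15 and 53 reads, and the log2 fold change was 1.98 [1.21, 2.99]. Lif thus rested on few reads, and of the 1224 genes with 10 to 19 reads in the library labelled Ctrl, 610 (49.8%) had 0 in the library labelled KD.

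Of the receptors specific to these ligands, 1 was detected. Lifr, the chain that binds LIF and pairs with gp130, lies on the plus strand at chr15:7090614-7197489 and had levels of 304 and 1171, from 314 and 1030 reads. It was higher in the library labelled KD, with a log2 fold change of 1.94 [1.76, 2.13]. Osmr, the specific oncostatin M chain found mainly on stromal and epithelial cells, lies 215644 bases from Lifr on the minus strand at chr15:6813577-6874969. It had 0 reads in both libraries, which allows levels of up to 2.90 and 3.41 at a floor of 3 reads. Of the 14 stromal and endothelial markers, Col3a1, Dcn, Cxcl13, Ccl21a and Emcn were likewise at 0 in both. Another 8 markers passed the filter, of which 2 were higher and 3 lower, so the list as a whole was not at 0. The list's reads (2602 and 3140) came mostly from Pecam1 (2339 and 2836), and Stab2 had 31 and 158.

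**Figure D2:**
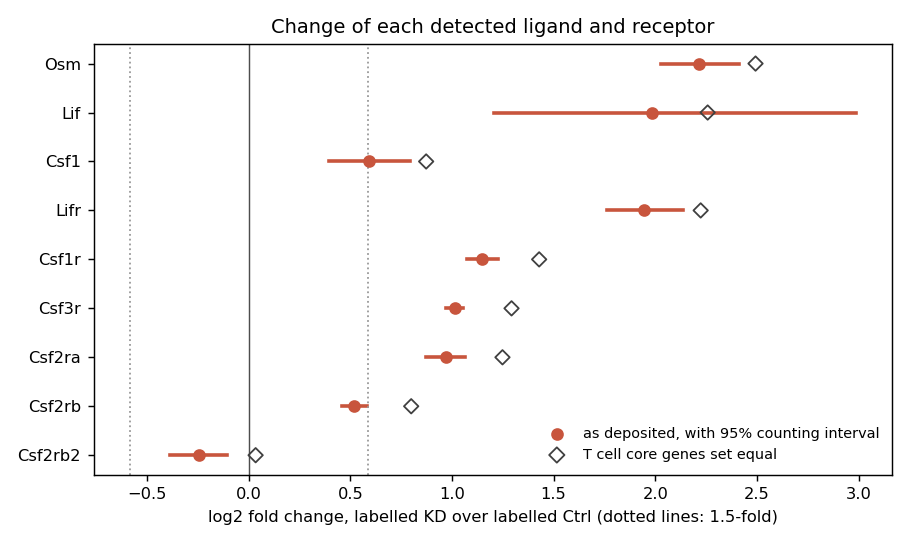
Log2 fold change (library labelled KD over library labelled Ctrl) of each detected ligand and receptor, with bars for the 95% counting interval, dotted lines at 1.5-fold and open diamonds for the values when scaled to equal T cell core reads. As deposited, Osm (2.21), Lif (1.98) and Lifr (1.94) lie farthest to the right, and Csf2rb2 lies at -0.25, with its diamond at 0.03.

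**Figure D3:**
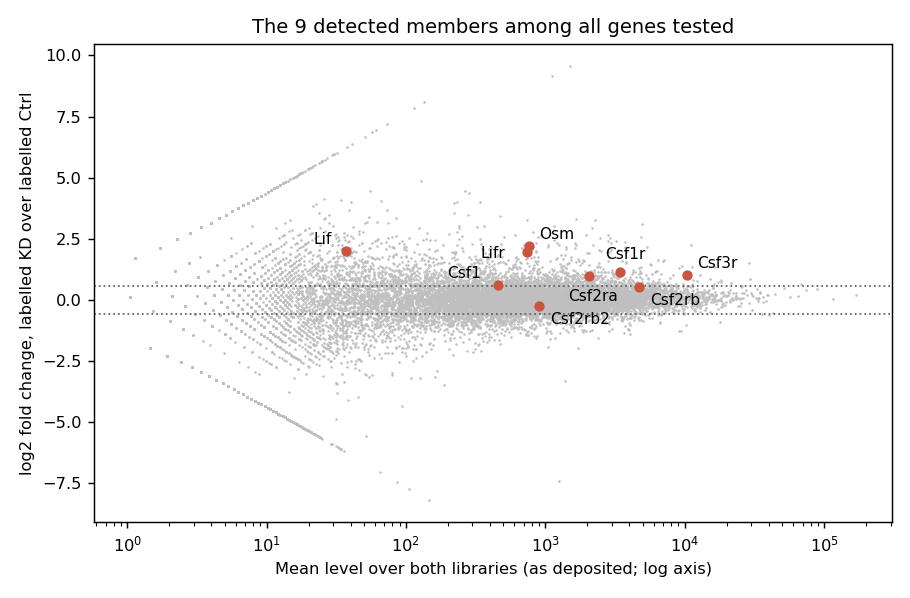
Log2 fold change against mean deposited level (log axis) for all 16659 genes past the filter (grey) and the 9 detected members (red), with dotted lines at 1.5-fold. Csf3r lies at the high end of expression and Lif at the low end, where the grey points fan out.

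Sequence upstream of the start was at hand for 7 members at 8 starts (RefSeq, GRCm38.p6), with no entry for Osm, Csf2rb and Csf1r. The 250 bases before each start were searched on both strands for the letters TTCNNNGAA (STAT), GAGGAA (PU.1), TTGCNNAA (C/EBP), TGANTCA (AP-1) and, for NF-kB, GGGA followed after any 2 bases by TTCC. The PU.1 letters were found at 4 of 8 member starts (Csf2ra, Csf2rb2, Csf3r and Osmr) and in 23.2% of all 32851 promoters. The NF-kB letters were found at 2 and in 1.21%, and the AP-1 letters at 1 and in 6.75%. The STAT letters were found at 1 (Csf2rb2) and in 7.02%, and the C/EBP letters at 0 and in 9.56%. Neither start of Lifr had a match. All 250 bases searched at both Lifr starts and at the Osmr start lie inside their GENCODE genes. None of these motifs overlapped another in the member sequences. The upstream sequences of 4 members that were higher in the library labelled KD are printed 5′ to 3′ on the gene's strand with matches in capitals: PU.1 letters beginning 14 and 8 bases before the start of Csf2ra, NF-kB letters beginning 154 bases before Csf1 and 129 before Csf3r, and AP-1 letters beginning 228 bases before Lif. For Csf3r the 141 bases outside the GENCODE gene are printed, and its PU.1 match lies in the rest. The last 11 bases of the Csf2ra and Lif stretches lie inside their GENCODE genes, with the second PU.1 match of Csf2ra and the end of its first match among them. A match describes these letters only and is not evidence of binding.
Csf2ra, chr19:61228419-61228668, minus strand: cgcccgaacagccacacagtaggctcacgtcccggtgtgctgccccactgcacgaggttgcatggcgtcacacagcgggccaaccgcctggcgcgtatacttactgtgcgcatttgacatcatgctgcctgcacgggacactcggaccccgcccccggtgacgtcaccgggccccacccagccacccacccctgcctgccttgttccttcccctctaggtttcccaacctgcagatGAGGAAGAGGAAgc
Csf1, chr3:107760470-107760719, minus strand: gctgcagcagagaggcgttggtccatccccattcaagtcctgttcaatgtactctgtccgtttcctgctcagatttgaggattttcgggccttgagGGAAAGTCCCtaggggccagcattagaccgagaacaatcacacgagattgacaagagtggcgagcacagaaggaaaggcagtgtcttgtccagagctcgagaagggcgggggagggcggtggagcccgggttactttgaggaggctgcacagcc
Csf3r, chr4:126024409-126024549, plus strand: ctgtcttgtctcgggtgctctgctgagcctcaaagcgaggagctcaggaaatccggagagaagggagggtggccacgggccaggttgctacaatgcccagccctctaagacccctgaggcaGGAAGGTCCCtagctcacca
Lif, chr11:4257318-4257567, plus strand: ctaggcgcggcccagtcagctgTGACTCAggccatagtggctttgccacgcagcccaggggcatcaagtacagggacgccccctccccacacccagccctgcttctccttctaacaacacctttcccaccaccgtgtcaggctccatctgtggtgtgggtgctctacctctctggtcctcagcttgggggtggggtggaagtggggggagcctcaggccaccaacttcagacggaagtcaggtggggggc

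The other ligands of these receptors and their relatives were few in reads. Of 12 listed genes 5 had 0 reads in both libraries (Il34, Csf2, Il3, Il5 and Il11), and of the 7 compared 0 were higher and 4 lower, with a median log2 fold change of -1.02. The median was -0.60 with a minimum mean of 10 and 0 with no filter on low values, which brings in the genes without reads, and the summed level of the list was 1.25 times as high in the library labelled KD. Il6, the founding cytokine of the gp130 family, had 26 and 0 reads. Setting the 0 to the floor of 3 reads gives 7.37-fold lower in the library labelled KD. The counting interval of Il6 reaches a log2 ratio of -2.48. Il27, encoding a subunit of IL-27, had 44 and 18 reads (log2 fold change -1.02). Both are low counts, though above the range of 10 to 19 reads for which genes at 0 in the library labelled KD were counted. Clcf1 was the best covered of the list, with 715 and 857 reads and a log2 fold change of 0.49 (0.77, past 1.5-fold, under the scaling to equal T cell core reads), followed by Cntf, ciliary neurotrophic factor, with 59 and 61 reads (0.28).

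Among 11 partner and related receptor chains 1 was higher and 5 were lower, with a median of -0.48. With Cntfr (5 and 0 reads) at its bound, 4 were lower. Il6st, which encodes gp130, had levels of 5213 and 4983 (log2 fold change -0.07, and above 0 when scaled to equal T cell core reads), and Il6ra, the IL-6 receptor alpha chain, 2074 and 3038 (0.55, and 0.83 under that scaling, past 1.5-fold). Per length, Il6st was at 16.7 times the level of its partner Lifr in the library labelled Ctrl and at 4.13 times in the library labelled KD. Il5ra, the IL-5 receptor alpha chain, had levels of 84.2 and 279 (1.72), the 1 chain of this list that was higher. Kit, the receptor for stem cell factor, had levels of 2863 and 1601 (-0.84) and Epor, the erythropoietin receptor, 538 and 215 (-1.32). When scaled to equal T cell core reads, Kit (-0.56) came within 1.5-fold, and 3 of the 11 chains were higher and 2 lower.

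Of 17 JAK-STAT and proximal signalling genes 6 were higher and 0 lower (median 0.31), and 9 were higher when scaled to equal T cell core reads (median 0.59). Jak1, a kinase bound to gp130, had levels of 17900 and 20684 (log2 fold change 0.21). Stat3, the main STAT downstream of gp130, had levels of 3811 and 6995 (0.88). Lyn, a Src-family kinase of myeloid and B cells, was also higher, with levels of 3899 and 8754 (1.17).

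Of 14 negative regulators 5 were higher and 0 lower (median 0.40). Socs3, which binds gp130 and blocks its signal, had levels of 1650 and 2794 (log2 fold change 0.76), and Socs2, which restrains STAT5 signalling, 137 and 265 (0.94). Inpp5d, encoding the phosphatase SHIP1, had levels of 4358 and 7378 (0.76). Ptpn6, encoding the phosphatase SHP-1, had levels of 6773 and 9247 (0.45) and Cbl, a ubiquitin ligase for CSF1R, 5859 and 7243 (0.31), both within 1.5-fold. Under the scaling to equal T cell core reads both passed it (0.73 and 0.59), and 10 of the 14 were higher.

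Of 11 transcription factors known to drive the receptor genes 4 were higher and 2 lower (median 0.24). Cebpb, a factor of myeloid activation, had levels of 498 and 3791 (log2 fold change 2.93), Irf8, a factor of monocytes and dendritic cells, 2027 and 4070 (1.01), and Spi1, which encodes PU.1, 2238 and 3662 (0.71). Gata1, a factor of the erythroid and megakaryocyte lines, had levels of 1380 and 627 (-1.14) and Gata2, of early progenitors and mast cells, 735 and 430 (-0.77, and -0.49, within 1.5-fold, when scaled to equal T cell core reads). Runx1 was at 2747 and 2646 (-0.05, above 0 when scaled to equal T cell core reads).

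Among 15 STAT3 and STAT5 response genes, Timp1 was at 0 in both, and of the other 14 compared 6 were higher and 0 lower (median 0.47), or 10 higher when scaled to equal T cell core reads. The list holds Osm itself and shares Socs2, Socs3, Cish and Cebpd with the lists above. Fos and Junb, subunits of AP-1, had levels of 854 and 3266 (log2 fold change 1.93) and 2952 and 6603 (1.16). Both also belong to the 12 immediate early genes, of which 10 were higher, with summed reads of 17984 and 41015. Mcl1, a survival factor, had levels of 11489 and 14445 (0.33, and 0.61, past 1.5-fold, under that scaling) and Pim1, a kinase gene, 4091 and 4022 (-0.02, above 0 when scaled to equal T cell core reads).

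**Figure D4:**
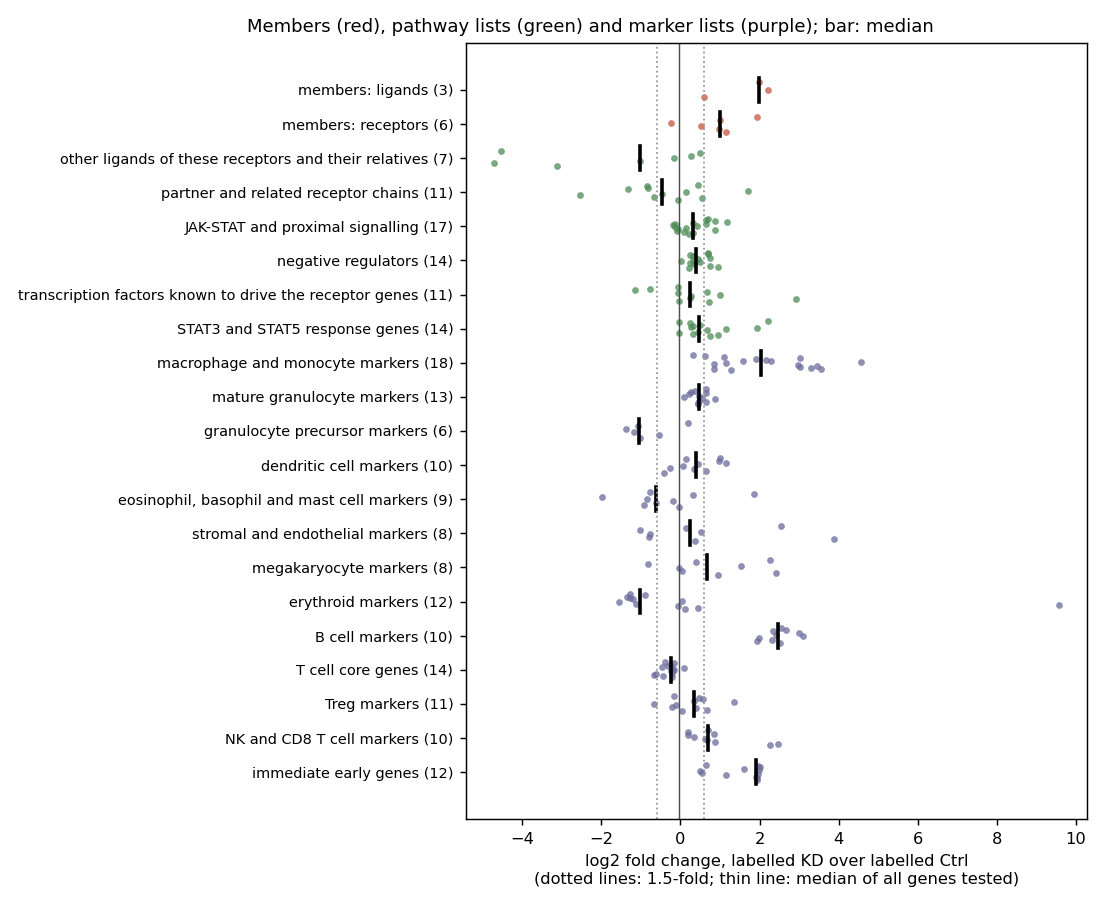
Log2 fold change (library labelled KD over library labelled Ctrl) of each gene of the members (red), the pathway lists (green) and the marker lists (purple), with the number of genes compared in brackets and a black bar at each median. The ligands and receptors among the members have medians of 1.98 and 0.99, and the B cell and macrophage lists medians of 2.47 and 2.04.

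Lists of markers of other cell types differed in their direction. Of 18 macrophage and monocyte markers 17 were at least 1.5-fold higher in the library labelled KD (median 2.04), and the summed level was 1.94 times that in the library labelled Ctrl, or 2.31 times without Lyz2. Of 13 mature granulocyte markers 4 were higher and 0 lower (median 0.46, summed level 1.43 times), or 10 higher when scaled to equal T cell core reads. Of 6 granulocyte precursor markers 0 were higher and 4 lower (median -1.05, 0.526 times). Of 10 dendritic cell markers 4 were higher and 0 lower (median 0.40, 1.63 times), or 6 higher under that scaling. The 10 B cell markers were all higher (median 2.47, 5.58 times). Their part in the members' changes was not tested.

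Set against these lists, the members fell into groups. Per 1000 reads of the macrophage and monocyte list, Csf1r had 72.6 reads in the library labelled Ctrl and 83.0 in the library labelled KD, a ratio of 1.14, and the ratios of Csf3r (1.04) and Csf2ra (1.01) were also close to 1. Osm (2.40), Lif (2.14) and Lifr (1.99) stood above that list, and Csf1 (0.779), Csf2rb (0.739) and Csf2rb2 (0.435) below it. Most reads of that list came from Lyz2, with 21710 of 30265 in the library labelled Ctrl and 33118 of 49931 in the library labelled KD. Without Lyz2 the list's summed level was 2.31 times as high in place of 1.94 times, so each of these ratios would be lower. Per 1000 reads of the mature granulocyte list, Csf3r had 26.1 and 37.0 reads (1.42), Csf2rb had a ratio of 1.01 and Csf2rb2 of 0.591. Relative to B cell markers every detected member had a ratio below 1, from 0.834 for Osm to 0.151 for Csf2rb2. Relative to the C1q genes alone, which mark resident macrophages and had 175 and 1327 reads, the ratios ran from 0.522 to 0.0946. The group a member falls in therefore depends on the marker list chosen.

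**Figure D5:**
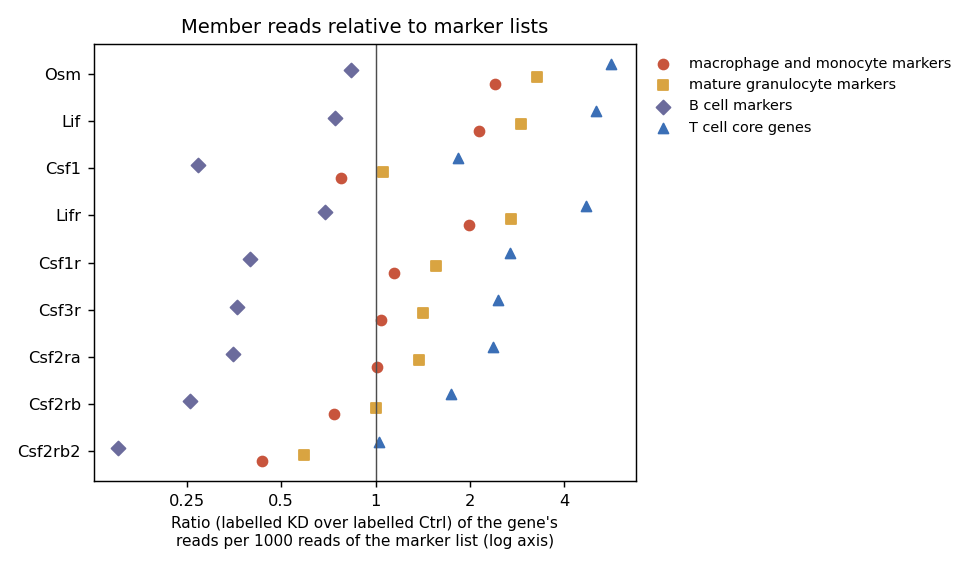
Ratio (library labelled KD over library labelled Ctrl, log axis) of each detected member's reads per 1000 reads of a marker list, with 1 symbol per list. Osm, Lif and Lifr have the highest ratios and Csf2rb2 the lowest. A list divides every member by the same value, so this order is the same for each list by construction.

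The remaining lists give the setting of these values. Of 11 Treg markers 2 were higher and 1 lower (median 0.35), or 6 and 0 when scaled to equal T cell core reads, of 14 T cell core genes 0 and 2 (-0.24), of 10 NK and CD8 T cell markers 7 and 0 (0.69), of 8 megakaryocyte markers 4 and 1 (0.68), of 12 erythroid markers 1 and 7 (-1.01), of 9 eosinophil, basophil and mast cell markers 1 and 5 (-0.62, with Ear6 at 0 in both) and of 8 stromal and endothelial markers 2 and 3 (0.25, but -0.32 with a minimum mean of 10 and 0 with no filter). The T cell core list had a median of 0.04 under the scaling to equal T cell core reads, under which the median over all genes was 0.24 in place of -0.04.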

How the data were processed

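RNA-seq of splenic Treg cells gave 2 libraries, 1 per genotype. The authors aligned reads to mm10 with TopHat according to the study's methods, while the submitters' processing notes list bcl2fastq 2.0, STAR, StringTie and DESeq2 without saying what each did. The deposited values are a signal, namely reads divided by 1 size factor per library: 100% of values were whole multiples of the smallest one within 0.01 reads, and dividing by it recovered the reads.

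Log2 fold changes used a pseudocount of 1, genes with a mean of at least 1, and a 1.5-fold threshold taken from the study's methods. Intervals at 95% and floors of 3 reads cover counting error only. RPKM used union exon lengths of GENCODE vM21. Python 3.11.15, scipy 1.17.1, R 4.3.3, edgeR 4.0.16 and DESeq2 1.42.0 (for its size factors) were used. An exact binomial test and an edgeR exact test with an assumed coefficient of variation of 0.4 were run on the recovered reads as alternatives. Simulated data held 200 genes with a log2 difference of 2. The 1.5-fold threshold alone, which makes the calls reported here, called 100% of them and 8.74% of the unchanged genes among 16574. The threshold with the binomial test called 99.5% and 0.0193%. The intervals, which cover counting error only, covered the true ratio for 95.8% of 14846 genes. These rates therefore describe counting error. The false-call rate for single libraries that differ in cell content was not tested. The simulated difference is far past 1.5-fold, so the 100% does not show how smaller differences would be called.

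The members and all gene lists were chosen with earlier results of these data known. Besides the 10 members, Mettl14 and Foxp3, the genes named were the 3 with the highest mean level and up to 3 with the largest change past 1.5-fold in each direction (at least 10 reads) of each pathway list, and marker genes at 0 in both libraries or of the highest mean level. Csf2, Csf3, Il3, Il5, Il11, Il34, Cntfr, Cish, Cebpd, Timp1 and the C1q genes fall outside this rule and were named after their values were seen. Some genes that this rule names are counted in their lists but not reported here by name. Authors' lists of changed genes were not used.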

Additional observations from a re-analysis of the deposited data

How the results depend on the processing

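Each genotype had 1 library, so every difference has no replicate check. No paired analysis was possible because each group held 1 library. With another pseudocount (0.1 or 5), no filter on low values, a minimum mean of 10, or the binomial test, 7 members were higher and 0 lower. With TMM or median-of-ratios scaling 6 were higher, Csf1 falling short of 1.5-fold, and with a 2-fold threshold 5 were (Osm, Lif, Csf1r, Csf3r and Lifr). When scaled to equal T cell core reads 8 members were higher, Csf2rb being added, and the log2 fold changes were 0.87 for Csf1, 2.49 for Osm, 1.43 for Csf1r, 1.25 for Csf2ra, 0.80 for Csf2rb, 0.034 for Csf2rb2, 1.29 for Csf3r and 2.22 for Lifr. Over all genes, 2864 were higher and 4028 lower. A minimum mean of 10 gave 2035 lower, the T cell core scaling 4512 higher, the 2-fold threshold 1722 higher, and the binomial test 2599 lower. Higher genes made up 41.6% of the changed genes, 50.9% with a minimum mean of 10 and 58.1% with the T cell core scaling. The edgeR exact test with an assumed coefficient of variation of 0.4 called 0 members higher, while over all genes it called 229 higher and 569 lower. On simulated data the edgeR test recovered 0% of changed genes. Only 200 genes were changed there, so the simulation cannot show what the test could find in these data. The binomial test compares 2 libraries and not the genotypes.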

Other observations

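GGACT is a common form of the letters at which m6A is written, and it was counted in the longest protein-coding transcript of each gene. Over the 16302 protein-coding genes past the filter, the median was 1.04 per kilobase, with quartiles of 0.628 and 1.52. Lif had 7 such words (1.74 per kilobase), Csf1r 8 (1.70), Csf2ra 3 (1.62), Csf2rb2 7 (1.48), Csf1 6 (1.44), Csf2rb 7 (1.43), Osm 3 (1.32), Osmr 5 (0.911), Csf3r 3 (0.862) and Lifr 8 (0.829). Lif thus had the highest density among the members and Lifr the lowest. No m6A measurement was analysed here, and a link between these words and the fold changes was not tested.

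The IL-5 receptor chain Il5ra was higher in the library labelled KD while 5 of 9 eosinophil, basophil and mast cell markers were lower. Of the other markers 1 was higher and 3 lay within 1.5-fold, and of all genes past the filter 24.2% were lower. When scaled to equal T cell core reads, 2 of the 9 markers were higher and 2 lower. Il5ra had 87 and 245 reads and Ccr3, a chemokine receptor of eosinophils, 55 and 172 (log2 fold change 1.86). Epx, eosinophil peroxidase, had 195 and 41 reads (-1.99), and Prg2, a protein of eosinophil granules, 555 and 261 (-0.85). Il5ra, Ccr3 and Epx were set side by side after their values were seen.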
